A study of Homo sapiens with 6 samples.

Results

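The genes described here are 8 that couple RNA handling to small shifts in temperature: the cold-inducible RNA-binding protein genes CIRBP and RBM3, the CDC-like kinase genes CLK1, CLK2, CLK3 and CLK4, and the SR protein kinase genes SRPK1 and SRPK2. They were taken by symbol from a count table of 15379 symbols, and 8 of 8 had a row and passed the filter on low counts, among 12056 genes tested. The cells were HaCaT, an immortalised line of human keratinocytes, sampled in 2 groups of 3 libraries. One group was held at 37C and the other exposed to 41C, for 1 h per day over 3 days in each case. No genotype or drug differs between the groups, and the interval between the final exposure and lysis is not given in the labels. The labels name no separate cultures for the replicates, so each p-value speaks only of the scatter among these 6 libraries, which could be technical.

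CIRBP and RBM3 encode small proteins with 1 RNA recognition motif and a glycine-rich tail, and their transcripts are known to accumulate when mammalian cells are cooled mildly and to decline when they are warmed. CLK kinases sit in the nucleus and phosphorylate the arginine- and serine-rich tails of SR proteins, the splicing factors that choose exons; their catalytic activity is known to respond to changes within the range of body temperature. SRPK kinases act on the same tails mainly in the cytoplasm, which licenses SR proteins for import into the nucleus. These are properties of transcripts and proteins as known from other work. Counts per gene, as here, do not measure kinase activity, protein or splicing.

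All 8 genes matched the RefSeq promoter table (GRCh38.p14). The 250 bases before the transcription start of the cold-inducible pair are shown because this pair has the best known link to temperature and the windows differ in the motifs searched. In CIRBP (chr19:1269082-1269331, plus strand) capitals mark GGGCGG and CCAAT on either strand. In RBM3 (chrX:48574234-48574483, plus strand) capitals mark TTCNNGAA and GAANNTTC, the spaced inverted repeats of the half-site that heat shock factors are known to bind.
CIRBP: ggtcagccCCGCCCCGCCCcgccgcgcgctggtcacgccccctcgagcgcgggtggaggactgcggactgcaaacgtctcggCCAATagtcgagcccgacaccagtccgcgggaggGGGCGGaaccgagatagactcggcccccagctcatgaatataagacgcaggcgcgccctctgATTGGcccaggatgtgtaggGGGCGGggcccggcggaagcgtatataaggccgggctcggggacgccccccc
RBM3: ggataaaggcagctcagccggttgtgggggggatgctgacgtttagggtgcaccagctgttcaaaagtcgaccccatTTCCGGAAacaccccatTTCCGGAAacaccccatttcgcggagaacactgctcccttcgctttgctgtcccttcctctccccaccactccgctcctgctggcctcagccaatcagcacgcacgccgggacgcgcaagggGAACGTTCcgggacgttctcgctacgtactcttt

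The CIRBP window held 4 matches to GGGCGG, the core of an SP1 site, and 2 to CCAAT. Of 35116 promoter windows of that length, 42.6% held GGGCGG and 32% held CCAAT on either strand. The RBM3 window held 0 matches to GGGCGG, 1 to CCAAT, 2 to TTCNNGAA and 1 to GAANNTTC. At least 1 of these inverted repeats lay in 11.6% of all windows, and 3 or more in 0.15%. The RBM3 window runs past the start of the gene in GENCODE release 29 (48574449). The GAANNTTC match, 34 to 27 bases before the RefSeq start, lies inside the gene as annotated there. Both TTCNNGAA matches of RBM3 read TTCCGGAA, which also holds GGAA, the core of ETS factor sites, on each strand. The windows of CIRBP, CLK1, CLK2, CLK3, CLK4, SRPK1 and SRPK2 held 0 such repeats at any listed start, while that of HSPA1A, the inducible HSP70 gene, held 1. TCCCCGCC, a sequence described as a mild-cold element, lay in 0 windows of the 8 genes and in 7.8% of all. A match is a string of letters and does not show that a factor binds.

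In the annotation (GENCODE release 29, GRCh38) most of these genes have many transcript forms. CIRBP (chr19:1259384-1274880) has 46 annotated transcripts, 10 of them with a retained intron and 13 marked for nonsense-mediated decay. The CIRBP window above precedes the 1 start listed for this gene and lies inside its annotated span. Any other starts of CIRBP were not searched for motifs. CLK1 (chr2:200853009-200864744), CLK3 (chr15:74598500-74645414) and CLK4 (chr5:178602664-178630615) have 8, 8 and 7 transcripts with a retained intron. SRPK1 (chr6:35832966-35921342) has 4 and SRPK2 (chr7:105110704-105399308) has 2, while RBM3 (chrX:48574449-48579066) and CLK2 (chr1:155262868-155278491) have 0. Among 11811 tested protein-coding genes, 58.3% have at least 1 such transcript and 12.6% have 5 or more. A count per gene adds all forms together, so a shift between a spliced and an intron-retaining form of CLK1 need not alter it.

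Library totals ran from 19659112 to 20856144 counts. Of 10 keratinocyte markers 10 exceeded 1 CPM, and their summed level was 7717 to 8314 CPM (counts scaled to the library total) at 37C and 8795 to 9231 CPM at 41C; the part of this difference in the values below was not tested. Melanocyte, fibroblast and leukocyte markers summed to at most 6.18, 17.9 and 18.7 CPM in any library. Of the 5 leukocyte markers, CD68 had most of the counts, 911 at 37C and 925 at 41C. CD14 had 44 and 29, PTPRC 1 and 2, CD3E 0 and 2 and LYZ 2 and 2. Among fibroblast markers COL3A1 had the most counts, 701 at 37C and 859 at 41C. MLANA, TYR, SOX10 and COL1A2 had no row and were not analysed here. In bulk RNA, fewer cells of a type and less RNA per cell cannot be told apart.

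None of the 8 genes passed the threshold between 41C and 37C. In edgeR's quasi-likelihood test 0 of 8 had an adjusted p below 0.05 and 0 of 8 an unadjusted p below 0.05, against 1.09% and 13.7% of all tested genes (131 genes called, of which 99 or 0.821% of those tested were higher and 32 or 0.265% lower; 57 and 53 with upper-quartile scaling). Limma-voom also called 0 of 8, and DESeq2 0 of the 3 to which it gave an adjusted p. The log2 changes were negative for 5 and positive for 3, from -0.15 to 0.13, with a median of -0.05 beside 0.00 over all tested genes. Among all tested genes 90.6% had a fitted change under 1.2-fold in either direction, and so did 8 of these 8. Scaled by TMM factors, the 3 libraries at 41C overlapped the 3 at 37C for each of the 8 genes, whereas 20% of tested genes had groups that did not overlap.

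**Figure D1:**
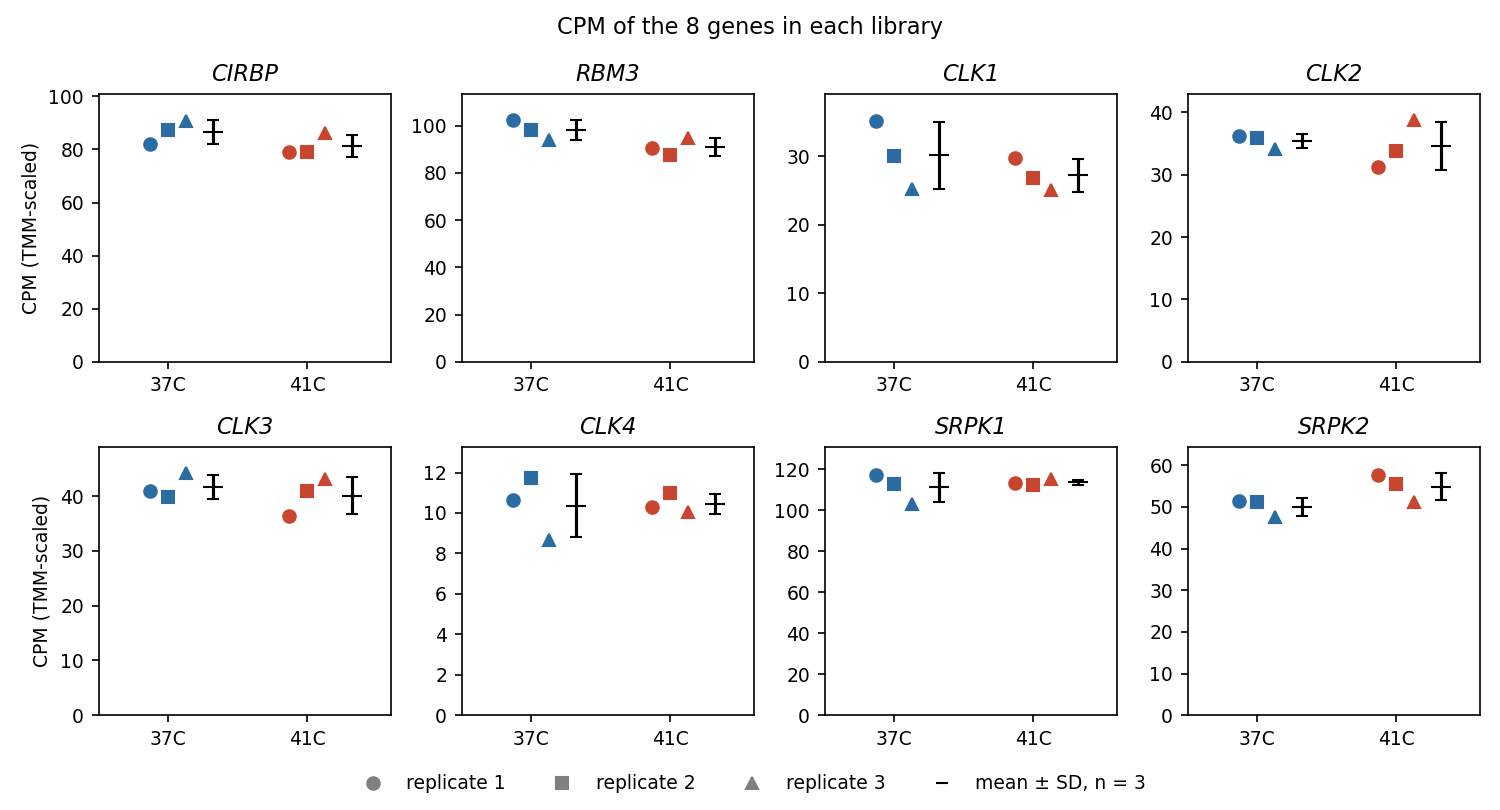
CPM (TMM-scaled, vertical axis from 0) of the 8 genes in the 3 libraries at 37C (blue) and the 3 at 41C (red), with symbols for the replicate number and black bars for the mean ± SD. The groups overlap in every panel; the 37C values of CLK1 spread from 25.2 to 35.0 CPM.

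CIRBP, which stabilises bound transcripts under cold and other stress, had 81.9, 87.4 and 90.8 CPM in 37C replicates 1, 2 and 3 and 78.9, 79.2 and 86.0 CPM in the 41C replicates. Replicates 1 and 2 at 41C lay below all 3 libraries at 37C, and replicate 3 lay between them. The means were 86.7 ± 4.48 and 81.4 ± 4.05 CPM (SD, n = 3 each), so the fitted log2 difference was -0.09 ± 0.06 (SE; edgeR adjusted p = 0.522). The 95% interval of the fold ran from 0.861 to 1.02. At this spread a fold of 0.84 would have been needed to pass.

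RBM3, a close relative that promotes translation in cooled cells, had 102.5, 98.0 and 94.0 CPM at 37C and 90.4, 87.5 and 94.9 CPM at 41C. Replicate 3 at 41C lay just above replicate 3 at 37C, and the other libraries at 41C lay below all 3 at 37C. The means were 98.2 ± 4.28 and 90.9 ± 3.76 CPM (SD, n = 3 each; log2 change -0.11 ± 0.06, edgeR adjusted p = 0.392), with an interval of the fold from 0.854 to 1.004. In the deposited FPKM values, which are scaled by the library total alone, the highest RBM3 value at 41C was 21.8 and the lowest at 37C 21.9, so there the groups met without overlapping. The share of all tested genes with this state in FPKM was not counted. In TMM-scaled CPM 8.84% had all libraries at 41C below those at 37C.

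The summed counts of the pair were steadier at 37C than either gene, with an SD of 0.495 CPM beside 4.48 for CIRBP and 4.28 for RBM3. From 37C replicate 1 to 3 CIRBP rose while RBM3 fell, which offset in the sum. At 41C the SD of the sum was 7.62 CPM, beside 4.05 and 3.76. The sums came to 184.4, 185.4 and 184.8 CPM in the 37C libraries and to 169.2, 166.7 and 181.0 CPM in the 41C libraries. All 3 sums at 41C were below all 3 at 37C, a state that 8.84% of tested single genes also showed. The sum had a log2 change of -0.10 ± 0.05, and from -0.14 to -0.08 with any 1 library left out. Within a library the FPKM ratio of RBM3 to CIRBP ranged from 0.579 to 0.700 at 37C and from 0.618 to 0.641 at 41C. An exact two-sided permutation test over 3 against 3 libraries gave p = 0.8 (adjusted over 3 ratios 0.8), and the smallest p this design allows is 0.1, so it could not pass.

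CLK1, the kinase of the family whose own transcript is known to be held in the nucleus with introns until stress releases it, varied most between replicates. It had 35.0, 30.1 and 25.2 CPM at 37C and 29.7, 26.8 and 25.03 CPM at 41C. The 37C libraries alone spanned nearly the whole range seen in the 6 libraries, with a 1.39-fold gap between the highest and the lowest. The means of 30.1 ± 4.91 and 27.2 ± 2.34 CPM (SD, n = 3 each) gave a log2 change of -0.15 ± 0.11 (edgeR adjusted p = 0.613) and an interval of the fold from 0.763 to 1.07. The within-group SD of CLK1 was 0.19 on the log2 CPM scale, larger than that of 94.2% of 2296 tested genes within 0.5 log2 units of its mean level, whose median was 0.09. At that spread a fold of 1.44, or of 0.695, would have been needed to pass. The log2 change was -0.26 without 37C replicate 3 (edgeR adjusted p = 0.0527) and -0.03 without 37C replicate 1 (edgeR adjusted p = 0.924).

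CLK2, which works on SR proteins in nuclear speckles and is also known in insulin signalling, had 36.1, 35.9 and 34.0 CPM at 37C and 31.2, 33.7 and 38.7 CPM at 41C. The libraries at 41C held both the lowest and the highest of the 6 values (log2 change -0.04 ± 0.08, edgeR adjusted p = 0.898). CLK3, the family member known for its abundance in testis, had 41.0, 39.8 and 44.2 CPM at 37C and 36.4, 40.9 and 43.1 CPM at 41C. Its groups overlapped almost fully apart from the low 41C replicate 1 (-0.06 ± 0.07, edgeR adjusted p = 0.808). CLK4, the closest relative of CLK1, was the least abundant, with 10.6, 11.7 and 8.66 CPM at 37C and 10.3, 11.0 and 10.02 CPM at 41C. All 3 libraries at 41C lay within the range of the 37C group (0.01 ± 0.12, edgeR adjusted p = 0.981).

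For CLK2, CLK3 and CLK4 the 95% intervals of the fold ran from 0.867 to 1.099, from 0.863 to 1.07 and from 0.844 to 1.21. The sign of these small changes turned without 41C replicate 1 for CLK2 (0.03) and CLK3 (0.01), and without 37C replicate 3 or 41C replicate 2 for CLK4 (-0.10 and -0.02). It also turned for CLK4 with upper-quartile scaling (-0.01), so the data give these genes no direction. Summed over the 4 kinases, the libraries had 122.8, 117.5 and 112.1 CPM at 37C and 107.5, 112.3 and 116.8 CPM at 41C, a log2 change of -0.07 ± 0.05 with overlapping groups. The FPKM ratio of CLK1 to CLK4 averaged 3.17 ± 0.397 at 37C and 2.83 ± 0.255 at 41C (SD, n = 3 each; exact two-sided permutation p = 0.2, adjusted 0.45; the smallest p possible is 0.1).

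SRPK1, the cytoplasmic SR protein kinase that chaperone complexes hold in place, had 117.4, 113.0 and 103.3 CPM at 37C and 113.5, 112.5 and 115.2 CPM at 41C. The libraries at 41C were closely alike and sat inside the 37C range (log2 change 0.03 ± 0.05, edgeR adjusted p = 0.856; interval of the fold 0.944 to 1.11). Its sign turned without 37C replicate 3, to -0.02. SRPK2, its relative that is most abundant in brain, had 51.3, 51.2 and 47.5 CPM at 37C and 57.6, 55.6 and 51.3 CPM at 41C. Replicates 1 and 2 at 41C lay above all 3 libraries at 37C, and 41C replicate 3 was level with 37C replicates 1 and 2.

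SRPK2 had the smallest p of the 8 genes. Its means were 49.99 ± 2.19 and 54.8 ± 3.23 CPM (SD, n = 3 each), with a log2 change of 0.13 ± 0.06 (edgeR adjusted p = 0.376), and 14.6% of tested genes had a smaller p. The interval of the fold ran from 0.998 to 1.21. The change was positive in each of the 16 alternatives, from 0.10 to 0.18. Summed, SRPK1 and SRPK2 had 168.7, 164.2 and 150.7 CPM at 37C and 171.1, 168.1 and 166.5 CPM at 41C, a log2 change of 0.06 ± 0.05 with overlapping groups. The FPKM ratio of SRPK1 to SRPK2 averaged 3.74 ± 0.0970 at 37C and 3.50 ± 0.246 at 41C (SD, n = 3 each; exact two-sided permutation p = 0.3, adjusted 0.45), a test that 3 against 3 libraries cannot pass.

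**Figure D2:**
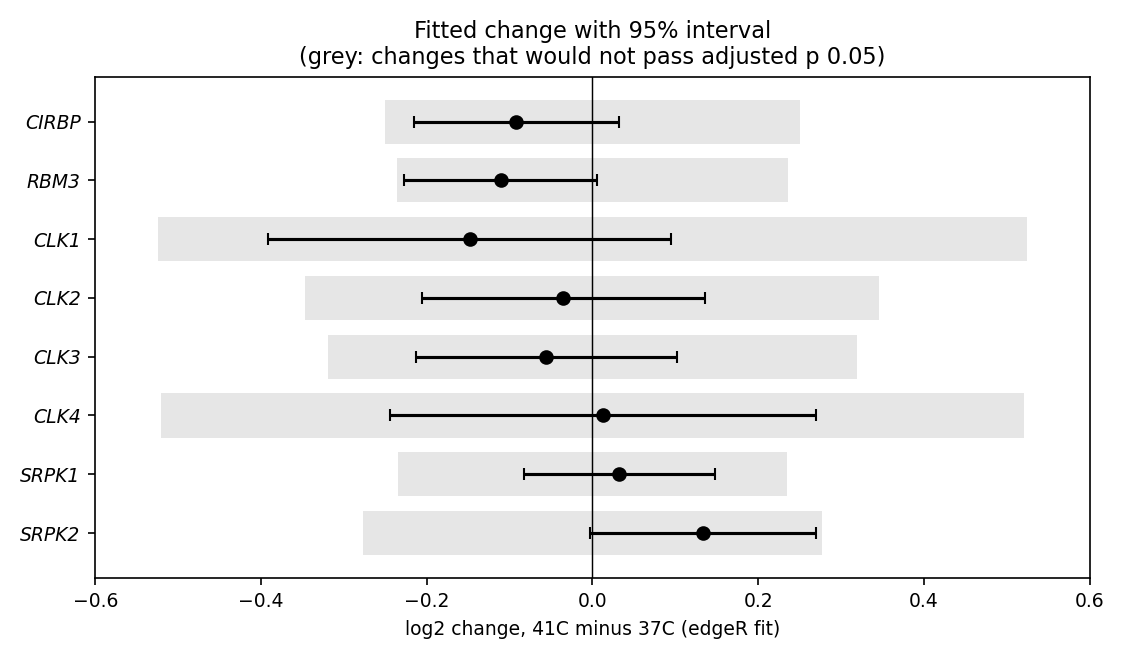
Fitted log2 change at 41C against 37C for each gene (points) with its 95% interval (bars); grey bands cover the changes too small to pass an adjusted p of 0.05 at that gene's own spread. All 8 points lie inside their bands, which are widest for CLK1 and CLK4 (0.52 on either side) and narrowest for SRPK1 (0.23).

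Gene length moved with the comparison. Over the 12056 tested genes, longer genes tended to have higher log2 changes (Spearman rho 0.25 across genes, which are not independent replicates). CIRBP, with 2405 bases in the length the FPKM values imply, is shorter than most tested genes, and 1006 genes within 10% of its length had a median log2 change of -0.02. RBM3 at 4298 bases and SRPK2 at 7311 bases had like-length medians of 0.01 and 0.03. With each library corrected for its trend on length, CIRBP had a log2 change of -0.06, RBM3 of -0.11, CLK1 of -0.12 and SRPK2 of 0.11. The values for CLK2, CLK3, CLK4 and SRPK1 were then -0.00054, -0.0124, 0.0383 and 0.0305, and the median over the 8 genes was -0.00645.

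The sources used here do not give the strand setting of the counting, so reads from these genes and from partners on the opposite strand cannot be told apart. SRPK2 overlaps KMT2E over 3658 bases, CLK3 overlaps EDC3 over 14857 bases, and CLK2 overlaps HCN3 over 909 bases. These neighbours had 10776, 7709 and 932 counts over the 6 libraries. CIRBP overlaps the antisense gene CIRBP-AS1 over 2428 bases. CLK2, CLK3 and SRPK2 have pseudogenes by name (CLK2P1, CLK3P2 and SRPK2P) that could share reads, so their values are uncertain to that extent.

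Per length, the 8 transcripts spanned about an order of magnitude. CIRBP led with 36.3 ± 1.64 FPKM at 37C and 33.6 ± 1.44 at 41C (SD, n = 3 each), above 84.1% of tested genes. SRPK1 followed with 25.7 ± 1.83 and 25.98 ± 0.197 FPKM, RBM3 with 23.0 ± 1.15 and 21.0 ± 0.760, and CLK3 with 21.96 ± 1.09 and 20.9 ± 1.65. CLK2 had 16.5 ± 0.632 and 15.9 ± 1.65 FPKM and CLK1 had 13.1 ± 2.23 and 11.7 ± 1.08. SRPK2 had 6.88 ± 0.339 and 7.45 ± 0.488 FPKM, and CLK4 was lowest with 4.16 ± 0.640 and 4.14 ± 0.207. Across the 6 libraries the ranges of SRPK1 and RBM3, of RBM3 and CLK3, and of CLK2 and CLK1 overlapped. Within a library SRPK1 nonetheless exceeded RBM3 in 6 of 6 and CLK2 exceeded CLK1 in 6 of 6, while RBM3 exceeded CLK3 in 3 of 6. CIRBP against SRPK1, CLK3 against CLK2, CLK1 against SRPK2 and SRPK2 against CLK4 did not overlap. In raw counts SRPK1 and RBM3 each exceeded CIRBP in 6 of 6 libraries, which their longer implied lengths turn round per kilobase. The implied length of RBM3, 4298 bases, is close to its whole annotated gene span of 4618 bases. The annotation behind these lengths is not named, so the order per length is uncertain to that extent.

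**Figure D3:**
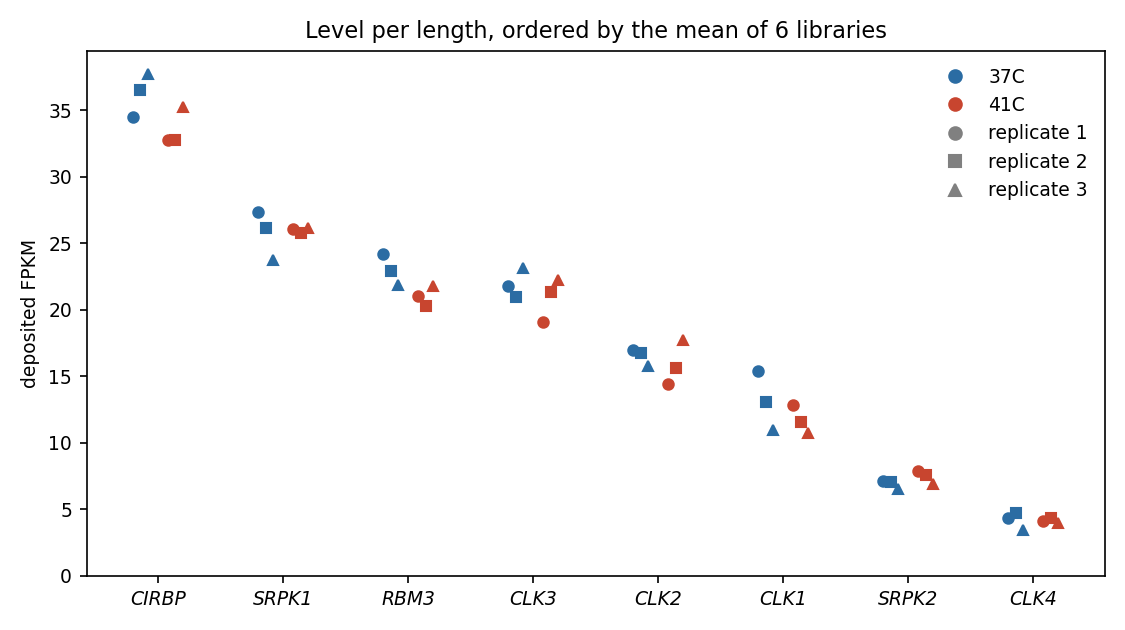
Deposited FPKM (vertical axis from 0) of the 8 genes in every library, ordered by the mean of the 6 libraries; colour gives the temperature and symbol the replicate number. CIRBP lies above all others at 32.8 to 37.8 FPKM and CLK4 below all others at 3.46 to 4.71 FPKM, while the range of RBM3 overlaps those of SRPK1 and CLK3, which do not overlap each other.

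Genes of the SR proteins, the substrates of these kinases, did not pass either. Of 14 SR protein genes 13 were tested and 0 passed in either direction, beside 1.09% of all tested genes. At that share 0 calls does not set a list of this size apart. The log2 changes ran from -0.09 to 0.04 with a median of -0.03, 2 positive and 11 negative. The members with the smallest p-values were SRSF5, SRSF1, SRSF7 and SRSF10, at -0.08, -0.06, -0.07 and -0.09 on the log2 scale (edgeR adjusted p = 0.496, 0.540, 0.559 and 0.578). SRSF1, the founding SR protein, had 449.7 ± 14.6 CPM at 37C and 430.2 ± 8.97 at 41C (SD, n = 3 each). SRSF10, which is known to lose its phosphate on heat shock, passed in 1 of 16 alternatives, without 37C replicate 3 (-0.16, edgeR adjusted p = 0.0237). That setting also raised the number of genes called over the whole table, so the pass is not particular to SRSF10.

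Other arginine- and serine-rich proteins of nuclear speckles, the splicing factor stores where CLK kinases act, gave 0 calls among 22 tested genes. Over all tested genes 1.09% were called, so 0 does not set this list apart. The median log2 change was 0.06, with 17 of 22 positive, beside 50.9% of all tested genes. CCNL2, which encodes a speckle cyclin that binds CDK11, came closest. It had 51.3 ± 1.38 CPM at 37C and 42.3 ± 2.97 at 41C (SD, n = 3 each), a log2 change of -0.28 ± 0.07 (edgeR adjusted p = 0.0546). All 3 libraries at 41C lay below all 3 at 37C for CCNL2, as for 8.84% of all tested genes. CCNL2 passed in 5 of the 15 alternatives that gave it an adjusted p, which ranged from 0.00737 to 0.226. For RSRP1, a little studied gene of this class, the log2 difference was -0.28 ± 0.10 (edgeR adjusted p = 0.226). RSRP1 passed in 1 of 15 alternatives, without 37C replicate 3 (edgeR adjusted p = 0.0172), a setting with more calls over the whole table.

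THRAP3 and SAFB lay on the positive side at 0.10 each (edgeR adjusted p = 0.364 and 0.371). SAFB encodes a scaffold protein known to join the nuclear stress bodies that form on heat shock. U2AF1, the small subunit of the factor that reads the 3' splice site, had the most extreme value of the class at -2.60 ± 1.85; it was named after its values were seen. It rests on 37C replicate 2 with 18.9 CPM beside 0.552 and 0.456 in the other 37C libraries, and its locus is known to have a near-identical copy, so the value is uncertain.

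Related kinases of the same group gave 0 calls among 14 tested genes, with a median log2 change of 0.08 and 11 positive. The share called over all tested genes was 1.09%, so 0 is unremarkable here and in the next list. HIPK2, a stress kinase, had 0.25 ± 0.10 (edgeR adjusted p = 0.273), CDK11A, the partner of cyclin L, 0.31 ± 0.15 (0.399), CDK9 0.10 ± 0.05 (0.379) and CDK12 0.10 ± 0.05 (0.420). CDK11A has a near-identical neighbour in CDK11B, so its separate value is uncertain. Phosphatases, import receptors and other regulators of SR protein phosphorylation gave 0 calls among 12, with a median of 0.04. AHSA1, which activates HSP90, and AKT1, which is known to act on SRPK kinases, were each at 0.10 (edgeR adjusted p = 0.359 and 0.413). The import receptor gene TNPO2 and the phosphatase regulator PPP1R8 had 0.08 and 0.09 (edgeR adjusted p = 0.494 and 0.496).

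Relatives, regulators and targets of CIRBP and RBM3 gave 0 calls among 23 tested genes, beside 1.09% of all tested genes. Their median log2 change was 0.04, with 14 positive. GSK3B, a kinase that phosphorylates CIRBP, had 148.1 ± 1.297 CPM at 37C and 160.6 ± 1.61 at 41C (SD, n = 3 each). Its log2 change was 0.12 ± 0.04 (edgeR adjusted p = 0.254). All 3 libraries at 41C lay above all 3 at 37C, a state that 11.2% of tested genes also showed. Groups did not overlap, in either direction, for 3 of the 23 genes, beside 20% of all tested genes. NTRK2, the neurotrophin receptor gene linked to RBM3 in cooled neurons, had 0.27 ± 0.11 (edgeR adjusted p = 0.272). IL6R, whose protein has been described as a receptor for secreted CIRBP, had -0.39 ± 0.16 (edgeR adjusted p = 0.287). TXN, the thioredoxin gene and a known CIRBP-bound transcript, had -0.07 ± 0.05 (edgeR adjusted p = 0.521), and 0.04 with the length correction. The clock genes whose transcripts both proteins are known to bind, named after their values were seen, had log2 changes of -0.02, 0.06, -0.03, 0.05, 0.06 and 0.09 for PER1, PER2, PER3, CRY1, CRY2 and CLOCK.

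Classical heat shock genes were the one list with calls, 3 higher and 0 lower of 12 tested, with a median of 0.16. Over all tested genes 0.821% were called higher and 0.265% lower. The lists were chosen with earlier results of these data known, so this contrast between lists is a description. HSPA1A had 150.4 ± 3.78 CPM at 37C and 185.4 ± 8.64 at 41C (SD, n = 3 each; log2 change 0.30 ± 0.05, edgeR adjusted p = 0.00498). The others called were HSPA8 and SERPINH1, at 0.21 and 0.20 (edgeR adjusted p = 0.0364 and 0.0382). HSPA1B, whose sequence is so close to that of HSPA1A that both values are uncertain, was at 0.17 (edgeR adjusted p = 0.108). The 3 calls became 1 with upper-quartile scaling, 0 without 37C replicate 2 or 41C replicate 2, 1 without 41C replicate 1 or 3 and 6 without 37C replicate 3.

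**Figure D4:**
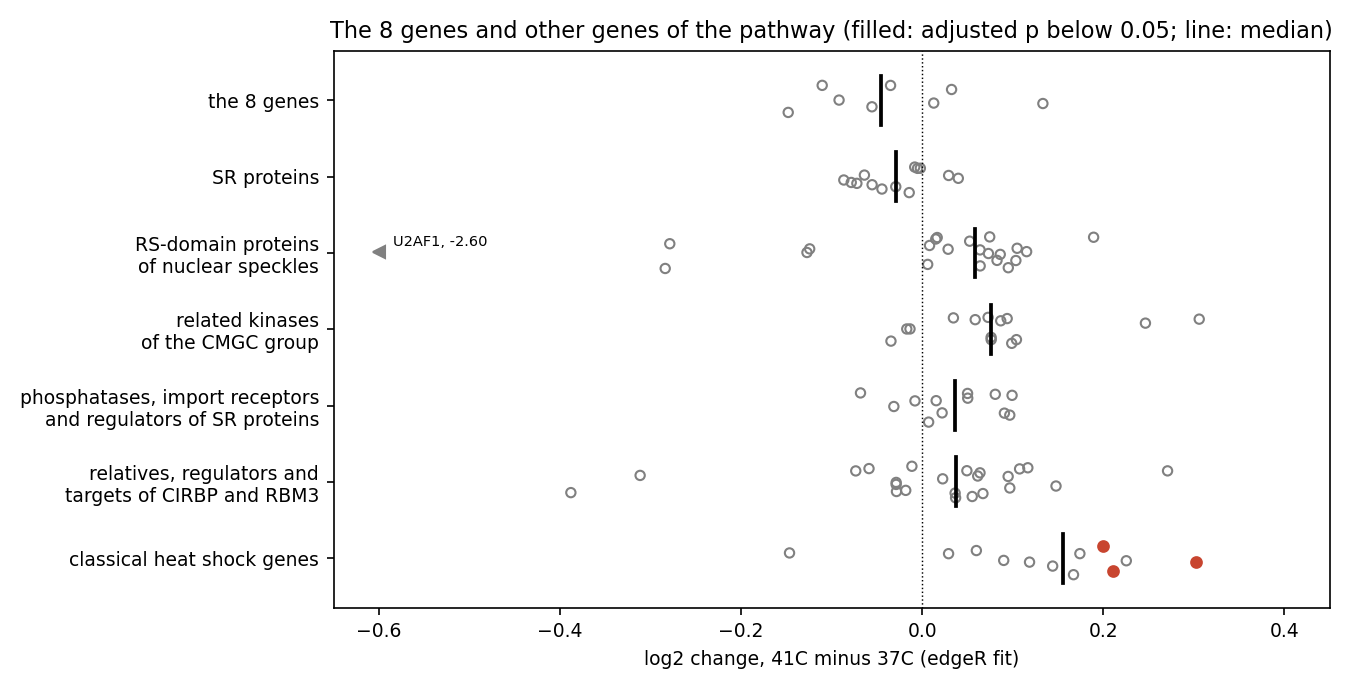
Fitted log2 change at 41C against 37C (horizontal axis) for the 8 genes and for each list of related genes; filled points passed an adjusted p of 0.05, open points did not, and vertical lines are medians. Only classical heat shock genes hold filled points (3 of 12, beside 1.09% of all tested genes). U2AF1 at -2.60 lies off the axis and is drawn at its edge.

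Among genes averaging 3 or more in log2 CPM, those closest to CIRBP over the 6 libraries were LPCAT4, RPL27A and RPS25. Likeness was the root-mean-square distance between log2 CPM profiles, each centred on its own mean, and it was 0.01 to 0.02 for these genes, beside a median of 0.11 over the 9607 genes compared. Closest to RBM3 were ATG12, RSL24D1 and MAN2C1, each at a distance of 0.02. Closest to CLK1 were C5orf34, USP45 and KLHL11, at 0.03 to 0.05 beside a median of 0.19. Being picked as the smallest distances, all of these lie below the median by selection, and no chance level was computed. The profiles of CIRBP, RBM3 and CLK1 departed from their own means by 0.075, 0.074 and 0.169 (root mean square). Their within-group SDs were 0.073, 0.061 and 0.188 on the log2 CPM scale. 

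**Figure D5:**
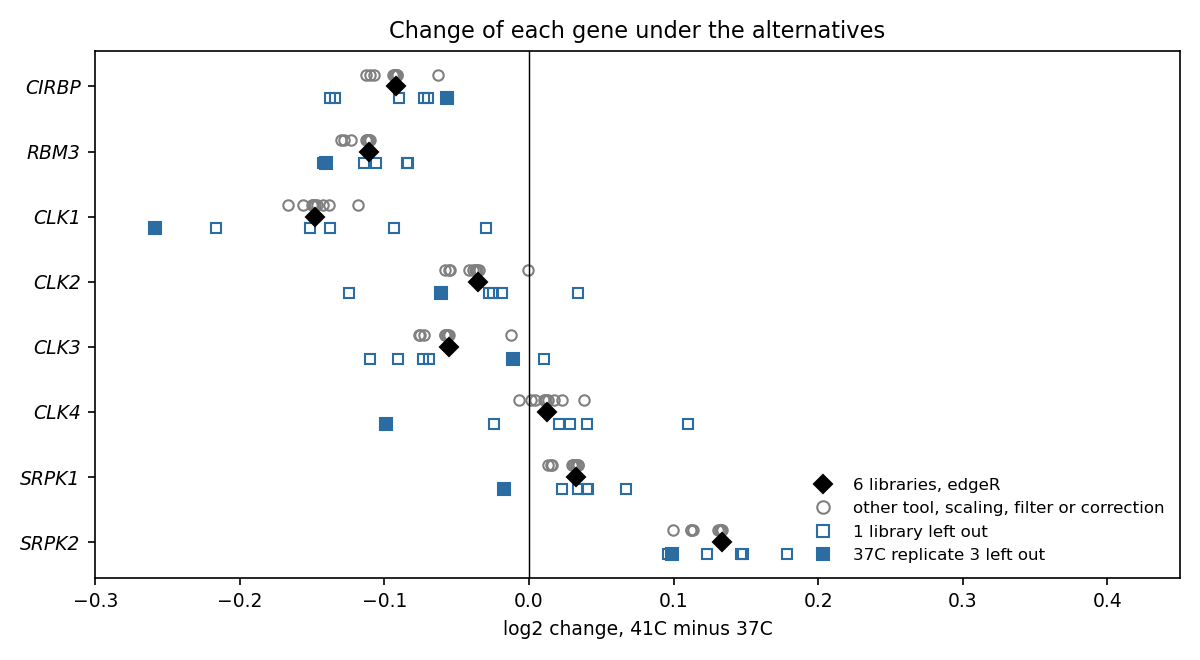
Log2 change at 41C against 37C for each gene with 6 libraries and edgeR (black diamonds), with another tool, scaling, filter or correction (grey circles, upper row) and with 1 library left out (blue squares, lower row; filled without 37C replicate 3). CIRBP, RBM3 and CLK1 stay below 0 and SRPK2 stays above 0 in the 16 alternatives, while CLK2, CLK3, CLK4 and SRPK1 cross 0; the squares of CLK1 spread from -0.26 to -0.03.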

How the data were processed

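Poly(A) RNA was sequenced from 6 HaCaT libraries, with a TruSeq Stranded mRNA kit per the labels' protocols. The submitters' processing notes name Trimmomatic 0.36, HISAT2 and GRCh38.p13; no counter, annotation or strandedness is named there. The deposited count table holds the authors' raw counts per symbol, and the deposited FPKM table holds the same counts per kilobase, scaled to the library total, equal within 0.01% for 100% of nonzero values.

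Counts were tested with edgeR 4.0.16 (R 4.3.3): filterByExpr, TMM scaling, robust quasi-likelihood fit, two-sided, Benjamini-Hochberg over 12056 genes, threshold 0.05. SE is the log2 change over the square root of F, and intervals are 95%. The fold needed to pass uses the largest p among called genes. The procedure was tested on simulated data. Changes of 1.2-fold were recovered in 24.5% of the genes given them, of 1.3-fold in 66%, of 1.5-fold in 84% and of 2-fold in 94%. Of 144 calls in that simulation 10 were false. Whether these shares carry over to the measured libraries was not tested. In the measured data the number of genes called ran from 5 to 805 with 1 library left out. The genes and the 6 lists were chosen with earlier results of these data known. Named were the 8 genes, up to 4 per list by smallest p, and 3 nearest profiles for CIRBP, RBM3 and CLK1; others are said to be named after their values were seen. Alternatives were DESeq2 1.42.0, limma 3.58.1 (voom, or fitted to log2(FPKM + 1) and to log2(FPKM + 0.1)), other scalings and filters, a length correction (spline, 4 degrees of freedom), a replicate block and each library left out. Motifs were searched on both strands.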

Additional observations from a re-analysis of the deposited data

How the results depend on the processing

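Each of the 8 changes was recomputed under 16 alternatives. Of 128 values 122 kept their sign, and 0 of the 123 with an adjusted p passed; DESeq2 gave none for CLK1, CLK2, CLK3, CLK4 and SRPK2. The signs that turned were those of CLK4 with upper-quartile scaling (-0.00681) and of CLK2 (-0.12 to 0.0341), CLK3 (-0.11 to 0.0102), CLK4 (-0.10 to 0.11) and SRPK1 (-0.0171 to 0.0671) with a library left out; the cause was not tested. The median over the 8 genes ran from -0.10 to 0.0156 with a library left out and was -0.00645 with the length correction. The change of TXN turned with the length correction (0.0377).

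The 131 genes called (99 higher, 32 lower) became 253 (185, 68) with DESeq2, 284 (184, 100) with no filter, 438 (297, 141) with the replicate block, 11 (5, 6) with log2(FPKM + 1) and 40 (22, 18) with log2(FPKM + 0.1); upper-quartile scaling gave 57 and 53. With a library left out they ran from 5 to 805 (4 to 483 higher, 1 to 322 lower). Leaving out 37C replicate 1, 2 or 3 gave 223, 17 or 805, and leaving out its 41C counterpart gave 36, 5 or 41. Heat shock genes called were 1 with upper-quartile scaling, 5 with DESeq2, 7 with the replicate block, 0 with log2(FPKM + 1), 1 with log2(FPKM + 0.1) and 0 to 6 with a library left out. Their median was 0.19 with the length correction and 0.13 to 0.17 with a library left out. Speckle genes called lower were 1 with upper-quartile scaling, no filter, the replicate block or the length correction, and 0 to 4 with a library left out (4 without 37C replicate 3). SR proteins and the phosphatase list had 0 to 1 called lower with a library left out. The phosphatase list's median was 0.0157 with upper-quartile scaling, 0.0171 with log2(FPKM + 1), 0.0172 with log2(FPKM + 0.1), 0.0490 with the length correction and 0.0199 to 0.0424 with a library left out, and that of the CIRBP and RBM3 list ran from -0.0237 to 0.0494.

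Whether same-numbered libraries pair could not be decided with 3 libraries per group. Deviations from the group means correlated at 0.08, -0.02 and 0.08 for replicates 1, 2 and 3. Differently numbered libraries of the 2 groups correlated at -0.14 to 0.07, and 37C replicate 2 correlated best with 41C replicate 3 (0.06). The replicate block moved CIRBP to -0.09, RBM3 to -0.11, CLK1 to -0.14 and SRPK2 to 0.13, with 0 of the 8 called.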
